A study of Mus musculus with 6 samples.

Results

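The genes described here are 7 transcription factors of the dorsal midbrain: Pax3, Pax7, Meis1, Meis2, Tfap2b, Tfap2d and Dmbx1. They were chosen by name as regulators of the alar plate and tectum, and their rows were read among the 26852 genes of the deposited table. RNA was sequenced from whole midbrain dissected from mouse embryos at E14.5, on a C57Bl/6 background. The Lmx1b cKO group carried Lmx1b fl/fl together with Pitx3-Cre, and the Lmx1b control group carried Lmx1b wt/wt together with Pitx3-Cre. Each group had 3 libraries, and each library held RNA pooled from 2 embryos of 1 genotype. Both groups therefore carried the Cre driver, which sits in the Pitx3 locus and takes the place of a functional Pitx3 allele. Recombination is driven in the Pitx3-expressing dopamine neurons of the ventral midbrain, while the 7 genes mark mainly its dorsal side, so the comparison asks whether the dorsal programme of the same tissue block differed between genotypes. In whole tissue, fewer cells of a type and less RNA per cell cannot be told apart.

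The midbrain is divided early into a ventral part, from which the dopamine neurons arise, and an alar part, which forms the superior and inferior colliculi, known together as the tectum. Paired-box factors set the alar identity of the progenitors, homeodomain proteins of the TALE class act with other homeodomain proteins on shared DNA sites, and AP-2 factors are switched on in neurons that leave the progenitor layer. Meis2 is known in the chick tectum as a partner of Otx2, which keeps midbrain from taking on hindbrain identity.

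Tfap2d and Tfap2b lie next to each other on chromosome 1, both on the plus strand, and 42567 bases separate the end of Tfap2d from the start of Tfap2b in GENCODE M21 (GRCm38). The sequence before their start sites is shown because they are neighbours of 1 family, and Meis1 and Dmbx1 are the remaining genes with a window outside annotated exons. Each run gives, 5′ to 3′, the bases outside annotated exons among the 250 before the RefSeq start (GRCm38.p6). The windows are chr1:19211804-19212053 (plus strand) for Tfap2b, where the RefSeq start lies within an intron of the longer GENCODE model, chr1:19102772-19103021 (plus strand) for Tfap2d, chr11:19018986-19019219 (minus strand) for Meis1 and chr4:115939927-115940176 (minus strand) for Dmbx1. Capitals mark the homeodomain core TAAT on either strand, which reads ATTA when it lies on the other strand.
Tfap2b: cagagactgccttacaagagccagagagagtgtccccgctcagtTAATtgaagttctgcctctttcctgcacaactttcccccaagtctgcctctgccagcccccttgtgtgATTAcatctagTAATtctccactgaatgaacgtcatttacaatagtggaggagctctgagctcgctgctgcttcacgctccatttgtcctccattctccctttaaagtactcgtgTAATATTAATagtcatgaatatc
Tfap2d: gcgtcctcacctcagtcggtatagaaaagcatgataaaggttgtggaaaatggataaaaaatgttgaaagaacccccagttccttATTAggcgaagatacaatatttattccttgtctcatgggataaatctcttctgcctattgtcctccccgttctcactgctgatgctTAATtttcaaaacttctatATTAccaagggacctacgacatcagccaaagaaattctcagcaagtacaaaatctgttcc
Meis1: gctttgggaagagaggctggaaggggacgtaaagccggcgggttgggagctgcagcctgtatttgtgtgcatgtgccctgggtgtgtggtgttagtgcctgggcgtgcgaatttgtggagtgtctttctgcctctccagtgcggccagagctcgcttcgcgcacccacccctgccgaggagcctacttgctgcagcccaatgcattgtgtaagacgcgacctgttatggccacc
Dmbx1: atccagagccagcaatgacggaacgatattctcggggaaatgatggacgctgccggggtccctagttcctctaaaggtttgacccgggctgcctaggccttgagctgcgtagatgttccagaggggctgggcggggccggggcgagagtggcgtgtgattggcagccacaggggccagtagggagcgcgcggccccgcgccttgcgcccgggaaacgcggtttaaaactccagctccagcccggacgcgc
The Tfap2b window held 6 copies of TAAT counted over both strands, some of which share bases, and the Tfap2d window shown held 3. Tfap2d has 2 further RefSeq starts, of which 1 has a window within that shown, and the other, at chr1:19103883-19104132, held 1 copy, with 55.2% G and C. The Meis1 and Dmbx1 windows held 0. TAAT was present in 54.9% of the 32851 windows of all genes, so the presence of a copy is common. The AP-2 palindrome GCCNNNGGC and the Meis core TGACAG, found in 13.7% and 15.9% of all windows, were at 0 copies in each of the 4. G and C made up 46.4% of the bases for Tfap2b, 39.6% for the Tfap2d window shown, 60.3% for Meis1 and 65.2% for Dmbx1. Of the 7 genes 6 had an entry in the table of starts. A letter match is a description of the sequence and not a binding site.

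The deposited values were 1 mean of normalized counts per genotype and gene. A normalized count is a read count divided by a size factor that sets the libraries to a common depth. Whole reads per library were recovered from the means for 98.1% of the genes, including all 7, and the libraries obtained are called replicates a, b and c within each genotype because they could not be tied to sample numbers. Over the recovered genes, the libraries held between 20566011 and 24974510 reads. Total Lmx1b, which drives the dopamine neuron programme, stood at 1257, 1401 and 1455 normalized counts in the cKO group, against 1368, 1352 and 1474 in controls. The ranges overlapped (log2 fold change -0.03, SE 0.074), so this total gives no check of the genotype labels. The midbrain and forebrain gene Otx2 was at 1613 to 1863 normalized counts in the 6 libraries.

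No difference between the Lmx1b cKO and the control was detected for any of the 7 genes. In the fit of the 16673 genes that averaged 10 or more normalized counts (limma with voom weights), 0 of 7 had an unadjusted p-value under 0.05 in a background of 2.79%. Each had a Benjamini-Hochberg adjusted p of 1.00 (limma), and no gene of the whole table had an adjusted p under 0.05. The cKO and control libraries overlapped for all 7, where the ranges of 7.67% of all genes did not. Log2 fold changes of cKO over control were negative for Pax3, Pax7, Meis1 and Dmbx1 and positive for Meis2, Tfap2b and Tfap2d. Their median was -0.15, against a median over all genes tested that rounded to 0 (-4.75e-05), and it lay between -0.31 without control replicate c and 0.08 without control replicate a. With 3 libraries against 3, the exact permutation test cannot give a p below 0.1.

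Expressed per kilobase of exon, the AP-2 gene Tfap2b was the most abundant of the 7, at 1256 ± 131 normalized counts per kilobase (SD over the 6 libraries). Its lowest library stood at 1063 and its highest at 1408, above all libraries of the next gene. Tfap2d followed at 416 ± 58.1 and Meis2 at 353 ± 42.8, and their ranges, 349 to 476 and 270 to 385, overlapped. Pax7 came next at 162 ± 26.7, with a range of 130 to 197 that met neither neighbour. The last 3 formed an overlapping series, with Meis1 at 62.6 ± 17.6, Pax3 at 49.7 ± 22.0 and Dmbx1 at 31.6 ± 12.4. Without correction for length, Tfap2b held between 48.4% and 55.3% of the summed normalized counts of the 7 in each library.

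**Figure D1:**
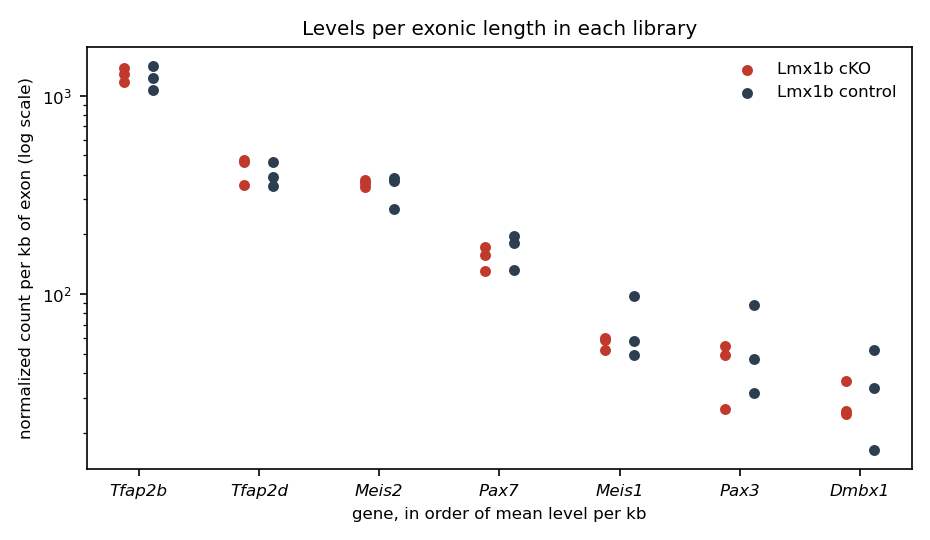
Normalized counts per kilobase of exon (log axis) for the 7 genes in order of their level, with 1 point per library and the genotype given by colour. Tfap2b stands above the others at 1063 to 1408, the ranges of Tfap2d and Meis2 overlap, and those of Meis1, Pax3 and Dmbx1 overlap in turn.

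Pax3 (ENSMUSG00000004872, chr1:78101267-78197134, minus strand, GRCm38) encodes a paired-box and homeodomain factor of dorsal progenitors along the neural tube. In cKO replicates a, b and c it reached 163, 340 and 305 normalized counts, and in the control replicates, given in the same order here and throughout, 549, 292 and 198. The highest and the lowest library, control a and cKO a, differed 3.36-fold, and the remaining 4 libraries of both genotypes lay between them. The means were 269 ± 93.9 in the cKO and 346 ± 182 in the control (SD, n = 3). The log2 fold change was -0.37 (SE 0.35, 95% interval -1.12 to 0.39, limma), and the exact permutation test gave p = 0.70. Without control replicate a the log2 fold change was 0.05.

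Pax7 (ENSMUSG00000028736, chr4:139737062-139833528, minus strand) encodes the closest relative of Pax3 and stays on in postmitotic tectal cells. It had 763, 926 and 1010 normalized counts in the cKO, against 1152, 1058 and 773 in the control. As with Pax3, control a was the highest library and cKO a the lowest, but here the gap between them was 1.51-fold. The means were 899 ± 126 and 994 ± 197 (SD, n = 3), the log2 fold change was -0.16 (SE 0.14, 95% interval -0.47 to 0.15, limma), and the exact permutation p was 0.50. Leaving out control c, which lay beside the lowest cKO library, moved the log2 fold change to -0.31, with an unadjusted limma p of 0.022.

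Dmbx1 (ENSMUSG00000028707, chr4:115915119-115939926, minus strand), a paired-type homeobox gene of the early midbrain, was the least abundant per kilobase. Normalized counts of 152, 213 and 146 were found in the cKO and of 307, 197 and 96.1 in the control. The control group held both the highest and the lowest value, 3.19-fold apart, with all cKO libraries between them. The means were 170 ± 37.3 and 200 ± 105 (SD, n = 3), the log2 fold change was -0.15 (SE 0.34, 95% interval -0.89 to 0.59, limma), and the exact permutation p was 0.80. The estimate turned positive, to 0.25, without control a, and moved to -0.56 without control c (unadjusted limma p 0.038).

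Meis1 (ENSMUSG00000020160, chr11:18879817-19018985, minus strand) encodes a TALE homeodomain cofactor of Hox and Pbx proteins. With 551, 633 and 618 normalized counts, the cKO libraries lay close together, whereas the control had 1027, 609 and 518. Control a stood alone at the top, and the 5 other libraries lay within 518 to 633. The means were 601 ± 43.7 and 718 ± 271 (SD, n = 3), with a log2 fold change of -0.23 (SE 0.20, 95% interval -0.67 to 0.22, limma) and an exact permutation p of 0.90. Without control a the log2 fold change was 0.08. Exons of Meis1 overlap those of Gm37818 on the same strand and Gm16140 on the opposite strand over 1925 bases, and whether counting used strand is not given in the sources used here, so these values are uncertain to that extent.

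Meis2 (ENSMUSG00000027210, chr2:115863064-116065839, minus strand), the TALE factor of the tectum, was at 4536, 4179 and 4386 normalized counts in the cKO and at 4502, 4640 and 3247 in the control. Control c was the low library, and the others lay within 4179 to 4640. The means were 4367 ± 179 and 4129 ± 768 (SD, n = 3), the log2 fold change was 0.09 (SE 0.11, 95% interval -0.14 to 0.32, limma), and the exact permutation p was 0.90. Without control c the log2 fold change was -0.07.

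Tfap2b (ENSMUSG00000025927, chr1:19208914-19238576, plus strand) encodes the AP-2 beta factor of tectal neurons and of neural crest derivatives. The cKO gave 8762, 7405 and 8137 normalized counts for it, and the control 7783, 8927 and 6739. The control libraries spanned the cKO libraries, and the highest and lowest of the 6 were 1.32-fold apart. The means were 8101 ± 679 and 7816 ± 1095 (SD, n = 3). The log2 fold change was 0.06 (SE 0.088, 95% interval -0.14 to 0.25, limma), with an exact permutation p of 0.80. It was -0.04 without control c and -0.0046 without cKO a.

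Tfap2d (ENSMUSG00000042596, chr1:19103022-19166346, plus strand), which encodes AP-2 delta, a factor needed by neurons of the inferior colliculus, was read at 910, 697 and 930 normalized counts in the cKO, compared with 758, 903 and 683 in the control. The genotypes were interleaved, with the lowest cKO library only just above the lowest control library. The means were 846 ± 129 and 781 ± 112 (SD, n = 3), the log2 fold change was 0.11 (SE 0.13, 95% interval -0.17 to 0.39, limma), and the exact permutation p was 0.50. Exons of Gm15825 overlap Tfap2d on the opposite strand over 171 bases.

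**Figure D2:**
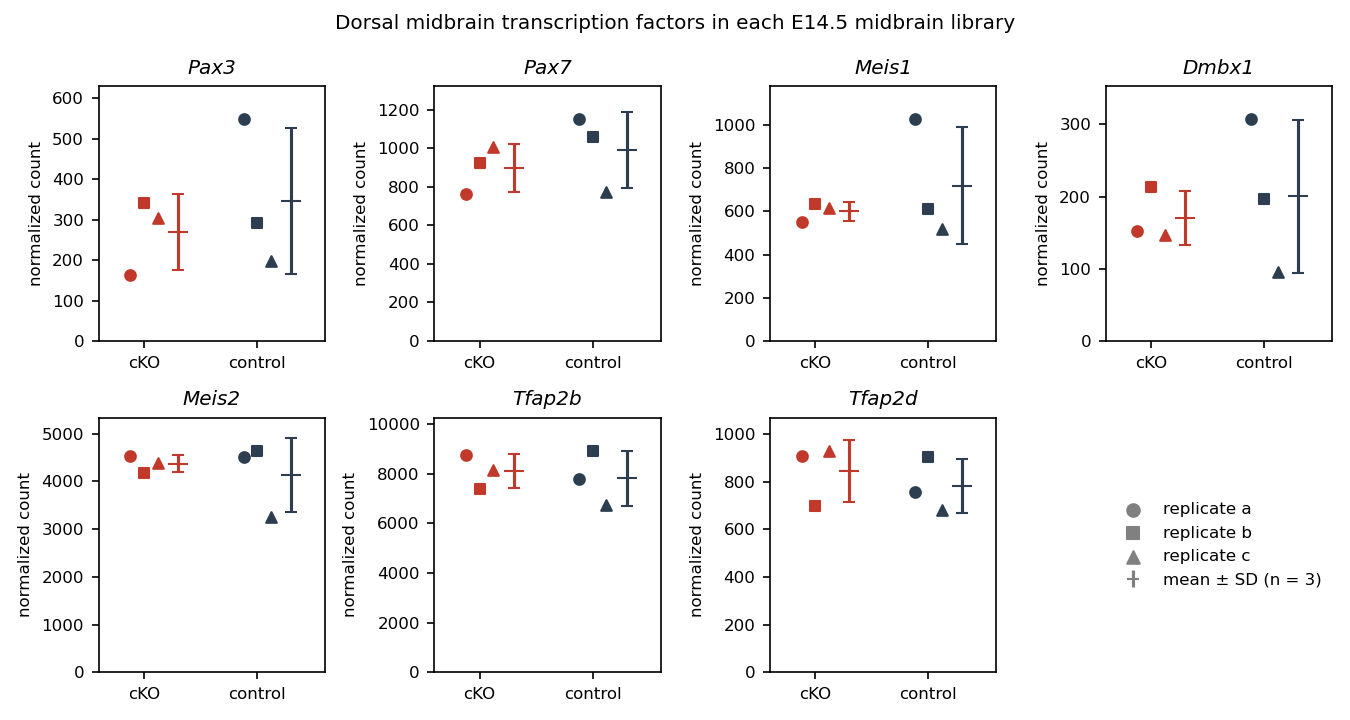
Normalized counts (each axis from 0) of the 7 genes in the 3 cKO and 3 control libraries, with 1 panel per gene, points for libraries and a line with SD for each group mean. The libraries of the 2 genotypes overlap in every panel, and control a is the highest point for Pax3, Pax7, Meis1 and Dmbx1.

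**Figure D3:**
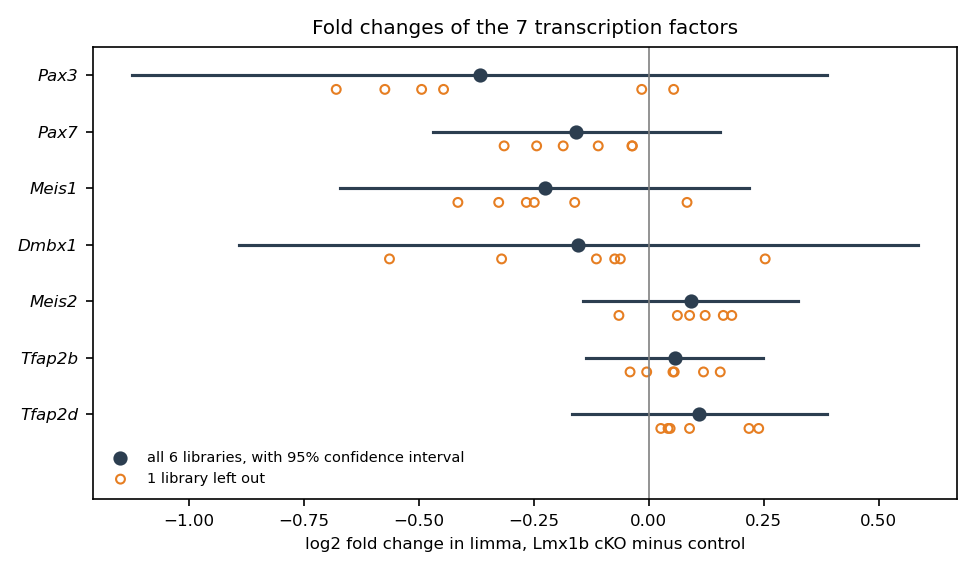
Log2 fold change of cKO over control from limma for the 7 genes, with 95% intervals, and open marks for the values obtained on leaving out 1 library at a time. All intervals cross 0, from the narrow ones of Tfap2b (-0.14 to 0.25) and Meis2 (-0.14 to 0.32) to that of Pax3 (-1.12 to 0.39).

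The intervals set how large a difference could have been missed. For Tfap2b and Meis2 they ended at -0.14 on the lower side, and at 0.25 and 0.32 on the upper side. For Pax3 and Dmbx1, changes down to -1.12 and -0.89 on the log2 scale lay within the interval. The width followed the spread between libraries of the same genotype. The within-group SD of log2 normalized counts was 0.66 for Pax3, 0.63 for Dmbx1, 0.37 for Meis1, 0.26 for Pax7, 0.22 for Tfap2d, 0.21 for Meis2 and 0.17 for Tfap2b, against a median of 0.10 over the 12441 recovered genes with a mean of at least 100. Genes whose reads sum to over 30000 in a genotype are not among them. Among genes whose mean lay within 2-fold of their own, between 93.8% (Tfap2d) and 99.6% (Pax3) had a smaller SD. All 7 genes were therefore more variable between libraries than most genes of like abundance.

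**Figure D4:**
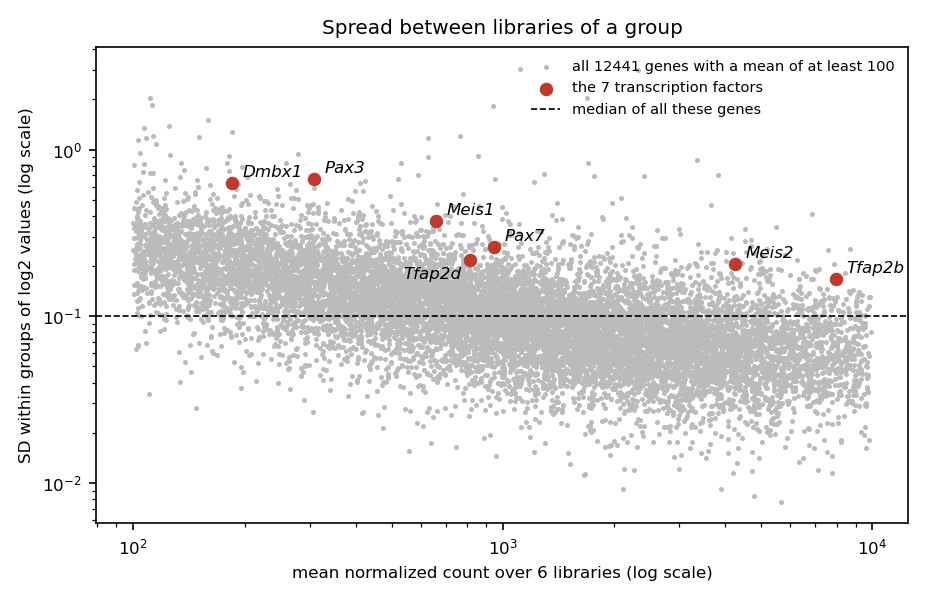
Within-group SD of log2 normalized counts against mean normalized count (both axes log) for the 12441 recovered genes with a mean of at least 100, with the 7 genes named. All 7 lie above the median SD of 0.10, with Pax3 (0.66) and Dmbx1 (0.63) farthest from it.

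Several genes had the same high or low library. Control a was the highest library for Pax3, Pax7, Meis1 and Dmbx1, at 0.94 above the mean of the 6 libraries on the log2 scale for Pax3 and 0.82 for Dmbx1. Control c was the lowest library for Meis1, Meis2, Tfap2b, Tfap2d and Dmbx1, and cKO a was the lowest for Pax3 and Pax7. Over the 6 libraries, the 6 pairs among Pax3, Pax7, Meis1 and Dmbx1 had Pearson correlations of 0.78 to 0.91 (Spearman 0.60 to 0.94), and the 3 pairs among Meis2, Tfap2b and Tfap2d had 0.70 to 0.90 (Spearman 0.60 to 0.94). The 12 pairs between these 2 sets had Pearson correlations of -0.20 to 0.70 (Spearman -0.26 to 0.37), and the highest of them, Meis2 with Dmbx1 (0.704), exceeded the lowest within a set, Meis2 with Tfap2d (0.700). The sets were drawn after the values were seen, so the contrast between them is a description. After removing the group means, the correlations within the sets were 0.76 to 0.90 and 0.67 to 0.89, and those between the sets -0.13 to 0.76. In a separate check, the 2 libraries farthest from the median of the first gene of each pair were left out. The first gene is the one named earlier in the opening list, and the second gene did not enter the choice. Pearson correlations were then 0.55 to 0.99 and -0.05 to 0.88 within the sets and -0.95 to 0.86 between them. The ranges overlapped here too. None of the 21 pairs passed Benjamini-Hochberg adjustment of the exact permutation p.

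The paired-box relatives Pax3 and Pax7 had a Pearson correlation of 0.91 (exact permutation p = 0.0278) and a Spearman correlation of 0.77 (exact permutation p = 0.103). Pearson's value was 0.77 without the 2 libraries farthest from the median of Pax3, the first gene of the pair. Pax3 and Meis1 had 0.90 (exact permutation p = 0.0194) and 0.94 (exact permutation p = 0.0167), and 0.99 without the 2 farthest libraries. The neighbours Tfap2b and Tfap2d, whose start regions are shown above, had 0.90 (exact permutation p = 0.025) and 0.77 (exact permutation p = 0.103), and 0.88 without the 2 farthest. Meis2 and Tfap2b had 0.87 (exact permutation p = 0.0139) and 0.94 (exact permutation p = 0.0167), and 0.67 without the 2 farthest, while Meis2 and Tfap2d fell to -0.05. Over all 21 pairs, the adjusted p of Pearson's correlation within the sets ran from 0.117 to 0.169 (exact permutation test).

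**Figure D5:**
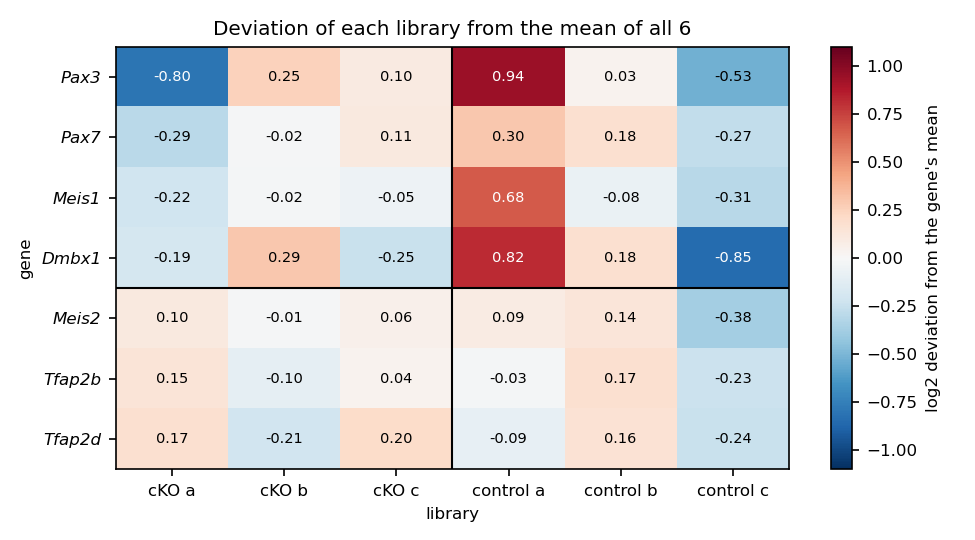
Log2 deviation of each gene from its mean over the 6 libraries, with genes in rows, libraries in columns, and colour from below (blue) to above (red) the mean. Control a is above the mean for Pax3 (0.94), Dmbx1 (0.82), Pax7 and Meis1, and control c is below it for all 7 genes.

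Marker lists of other regions also varied between these libraries. The summed normalized counts of 7 markers of cerebellum and rhombic lip were 4074 in control a and 2550 to 3113 in the others. Atoh1, which defines rhombic lip progenitors, was at 74.3 normalized counts in control a and at most 2.16 elsewhere. Skor2, a Purkinje cell gene, was at 325 in control a and at most 91.3 elsewhere. The dorsal gene Msx3 was at 113 against at most 12.7, but the 10 dorsal midline signals it belongs to summed to 659 in cKO b, 642 in control a and 509 to 570 in the other 4. The Hox genes Hoxb2, Hoxb3 and Hoxb4 of the hindbrain had no more than 3 reads in every library. The 8 markers of pretectum and thalamus, the region in front of the tectum, summed to 21957, 20292 and 18073 in the cKO and 18533, 19787 and 17308 in the control, highest in cKO a and lowest in control c. Foxp2, Lhx9 and Prox1 had that highest and lowest library, and the other genes of the list did not have both. Gbx2 was highest in cKO b (815) and lowest in control a (326), and Olig3 was highest in cKO b (181). In control c, the sum of the 15 ventral midbrain regulators was at its highest (13013, others 11145 to 12246), as was that of the 7 midbrain GABAergic regulators (9214, others 8009 to 8780). The part of tissue borders in the variation of the 7 genes was not tested.

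Pax3, Pax7 and Tfap2b are also made outside the neural tube, in muscle precursors or neural crest. The muscle genes Myod1 and Myog had no more than 3 reads in every library, and the 10 muscle markers summed to 57.6 to 111 normalized counts. The 9 bone and mesenchyme markers summed to 14121 in cKO c, 2344 in cKO a and 738 to 855 in the other 4 libraries, and the 8 neural crest markers to 1417 in cKO c and 909 to 1042 in the others. Of the 7 genes, Tfap2d alone was highest in cKO c, at 930 against 910 in cKO a. Col3a1, a fibrous collagen of mesenchyme, passed an unadjusted p of 0.05 (log2 fold change 1.84, SE 0.77, limma) and passed in 3 of the 6 fits that left out a library, at 1.03 without cKO c.

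Other regulators of the tectum were counted in the same way. Of 24 listed, 22 were tested, 1 was higher and 2 were lower at an unadjusted p under 0.05 (limma), where 1.18% of all genes were higher and 1.61% lower, and their median log2 fold change was -0.02. The 2 lower genes were the engrailed genes En1 and En2, which pattern the midbrain from its border with the hindbrain. The paper treats both as survival factors of the dopamine neurons. Whole tissue cannot place a drop in the tectum or in those neurons. En1 had 940, 1058 and 1147 normalized counts in the cKO and 1277, 1326 and 1540 in the control (log2 fold change -0.40, SE 0.094, unadjusted limma p 0.00128). En2 had 1413, 1716 and 1889 against 2400, 2012 and 2440 (log2 fold change -0.46, SE 0.10, unadjusted limma p 0.000871). The groups did not overlap for either, and both passed an unadjusted p of 0.05 on leaving out each of the 6 libraries in turn. Neither passed the adjustment over all genes (adjusted p 1.00, limma). The higher gene was Lhx1, a LIM homeobox gene (log2 fold change 0.15, SE 0.057), which passed in 2 of the 6 fits that left out a library and was at 0.095 without cKO b.

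Zic1 and Zic5, zinc finger genes of the dorsal neural tube counted in the same list, spread widely between libraries. Zic1 had 3802, 5579 and 1892 normalized counts in the cKO and 3625, 4008 and 1237 in the control, and Zic5 had 131, 347 and 64.9 against 317, 198 and 52.9. Control c was the lowest library and cKO c the next lowest for both genes, and the genotypes overlapped, with log2 fold changes of 0.37 (SE 0.41) for Zic1 and -0.13 (SE 0.62) for Zic5. Without control c they were at -0.15 and -0.81, and without control a Zic5 was at 0.44.

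Of 16 relatives and partners of the 7 genes in the Pax, TALE and AP-2 families, 14 were tested, 0 were higher and 1 was lower at an unadjusted p under 0.05 (limma, 1.18% and 1.61% of all genes), with a median log2 fold change of -0.03. The lower gene was Pax5, a paired-box gene of the midbrain-hindbrain border, at 3376, 4484 and 4879 normalized counts in the cKO and 4729, 5037 and 6100 in the control. Its ranges overlapped (log2 fold change -0.33, SE 0.12), and it passed in 4 of the 6 fits that left out a library, at -0.16 without cKO a. Meis3, the third Meis gene, had means of 2279 ± 271 and 2272 ± 289 (SD, n = 3), with a log2 fold change of 0.0016 (SE 0.097). Tfap2a, the relative of Tfap2b in neural crest and epidermis, had 306, 226 and 305 against 508, 303 and 246 (log2 fold change -0.30, SE 0.24) and, like Pax3, was highest in control a. It was at 0.015 without control a and -0.51 without control c. Tfap2c had no more than 3 reads in every library. Of the 10 dorsal midline signals, 8 were tested and 0 passed, with a median of -0.09, and of the 7 midbrain GABAergic regulators 0 passed, with a median of -0.14, against 2.79% of all genes in either direction.

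On the ventral side, where Cre acts, 14 of 15 listed regulators were tested, and 2 were higher and 3 lower at an unadjusted p under 0.05 (limma), where 1.18% of all genes were higher and 1.61% lower. Their median log2 fold change was -0.10. Sim1 was among the higher genes, with a log2 fold change of 0.45 (SE 0.16). The lower ones by log2 fold change were Nkx6-2 (-0.45, SE 0.14), Corin (-0.65, SE 0.28) and Pitx3 (-0.41, SE 0.18). Nkx6-2 and Sim1 passed in 6 of 6 fits that left out a library, and Corin and Pitx3 in 2. Sim1 was at 0.20 without control b, Corin at -0.39 without cKO b and Pitx3 at -0.24 without cKO a. The sign of Pax3, Meis1, Meis2, Tfap2b and Dmbx1 changed in at least 1 such fit, while Pax7 stayed at -0.31 to -0.04 and Tfap2d at 0.03 to 0.24.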

How the data were processed

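The deposited table held, per gene, 1 mean signal of normalized counts per genotype, made by the authors from read counts divided by size factors, beside the authors' own fold changes and p-values, which were not used. The submitters' processing notes name TopHat 1.0.14, Bowtie2 2.1.0, HTSeq 0.6.1p1, DESeq 1.10.1 and the build GRCm38.p4. The 3 lines naming no gene, 31.8% of the mean counts, were left out. Pooled embryos make each library, so p-values measure the spread between pools. The 7 genes, the lists and the tests were chosen with earlier results of these data known.

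Whole reads were recovered by searching, in numba 0.67.0, for the 1 set of whole counts (summing to at most 30000) that gives the printed mean under the size factors. This held for 26348 genes, which carry 69.2% of the normalized counts on genes. Of the 24 tectal regulators, Tcf7l2 and Ebf3 could not be recovered. The 6 recovered libraries carry a genotype and no sample number. Genes averaging 10 or more were tested using limma 3.58.1 (voom, genotype only) in R 4.3.3, with Benjamini-Hochberg adjustment over all genes, and the fit was tested on simulated data. Single genes and correlations were tested with two-sided exact permutation tests in scipy 1.17.1, and deviations and correlations used log2(normalized count + 1). Positions and exon lengths came from GENCODE M21, which matched 26693 genes, and start windows from RefSeq. Named besides the 7 genes are listed genes with an unadjusted p under 0.05 (1 of them is not reported here), reference genes (Lmx1b, En1, En2, Otx2) and the 5 genes most like the mean of the 7. The Zic, Meis3, Tfap2a and marker values given singly were chosen after they were seen. Alternatives were the minimum mean, the size factors, total reads, the trend of the variance, the pseudocount, the threshold and each library left out.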

Additional observations from a re-analysis of the deposited data

How the results depend on the processing

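The log2 fold changes of the 7 genes kept their direction and their side of the threshold in all 42 values obtained with settings other than leaving out a library. Their size was less steady. With the trend of the variance (limma), Dmbx1 was at -0.099, as was the median of the 7, against -0.15 for both in the main fit. The number of genes with an unadjusted p under 0.05 (limma, 466) was 972 with no minimum mean and 303 with a minimum of 100, as more or fewer genes were tested, and 67 at a threshold of 0.01. On leaving out 1 library at a time it was 338 to 638, the number with an adjusted p under 0.05 was 0 to 3 (3 without control a), and the number of the 7 genes with an unadjusted p under 0.05 was 0 to 2 (Pax7 and Dmbx1, without control c). Of the log2 fold changes, 6 changed sign when a library was left out: Pax3 (0.0541), Meis1 (0.0832) and Dmbx1 (0.253) without control a, Meis2 (-0.0650) and Tfap2b (-0.0408) without control c, and Tfap2b (-0.00461) without cKO a. The far ends of their ranges were -0.68, -0.42, -0.56, 0.18 and 0.16 for Pax3, Meis1, Dmbx1, Meis2 and Tfap2b. No paired analysis was possible because the recovered libraries carry no number. The table's header numbers the libraries of both genotypes 1 to 3, the sample labels run from 1 to 6, and RNA of embryos from several litters was pooled, with no litter tied to a number in the sources used here. With 3 libraries a group, the spread of Pax3 and Dmbx1 limits what could be detected.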

Other observations

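The genes whose log2 normalized counts followed the mean of the 7 genes most closely over the 6 libraries were Fancc (r = 0.998), 2610507I01Rik (r = 0.993), Anp32b (r = 0.990), Zeb2 (r = 0.988) and Zfp870 (r = 0.988). Zeb2 encodes a zinc finger homeobox factor of neurons and neural crest, and Fancc a DNA repair protein. Of 12434 genes, 69 (0.555%) had a correlation over 0.9 with that mean. The mean log2 deviation of the 7 genes was 0.39 in control a, 0.11 in control b and -0.40 in control c, and -0.16, 0.03 and 0.03 in cKO a, b and c. All these correlations rest on the same 6 libraries and their size factors.

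Among markers of other tissues, the pretectum and thalamus list had 0 of 8 genes higher and 1 lower (Bhlhe23, log2 fold change -0.29, SE 0.11), and the cerebellum list 0 of 6 higher and 2 lower (Cbln1, -0.31, SE 0.084, and Skor2, -1.41, SE 0.57), at an unadjusted limma p under 0.05, where 1.18% of all genes were higher and 1.61% lower. Of the 8 blood genes, 2 were higher (Hbb-bs at 0.30 and Hba-a1 at 0.26), of 8 vascular genes 0, of 8 genes of dividing progenitors 1 was lower (Hes5 at -0.33), and of 6 neuronal genes 1 was higher (Slc17a6 at 0.13). None of these had an adjusted p under 0.05 (limma). Of the 6 fits that left out a library, Cbln1 passed in 6, Bhlhe23 and Slc17a6 in 4, Skor2, Hbb-bs and Hba-a1 in 3 and Hes5 in 2. Without control a, Skor2 was at -0.69, Hbb-bs at 0.15 and Hba-a1 at 0.14, and without cKO a Slc17a6 was at 0.070. Hes5 was at -0.50 without cKO b and -0.22 without cKO a.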
